A study of Macaca fascicularis with 2 samples.

Results

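The 10 core genes of the circadian clock, ARNTL (now BMAL1), CLOCK, NPAS2, PER1, PER2, PER3, CRY1, CRY2, NR1D1 and DBP, were followed in gastrocnemius, a calf muscle, of the cynomolgus macaque Macaca fascicularis. They were chosen by name as the core of the clock, by a rule that uses no measured value, and all 10 were found among 28175 genes. Polyadenylated RNA was sequenced in 2 libraries, 1 from a lean sample fed chow and 1 from a non-lean sample fed a high fat diet. The comparison was designed to find expression differences between lean and obese muscle. Strain, age, genotype, the number of animals behind each library and the hour at which muscle was taken are not given here. With 1 library per group no test between groups was possible, no difference below has a replicate check, and diet, body condition, animal and hour of sampling cannot be told apart.

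The clock is a feedback loop of transcription that runs in nearly every cell, muscle fibres included. ARNTL pairs with CLOCK or with its relative NPAS2 and switches on the PER and CRY genes, NR1D1 and DBP. PER and CRY proteins then block that pair, while the REV-ERB proteins, of which NR1D1 encodes the alpha form, repress ARNTL, NPAS2 and CLOCK, and the ROR proteins activate the same sites. In a running clock the transcripts of ARNTL and NPAS2 therefore peak at about the opposite time of day from those of NR1D1 and DBP. DBP carries the rhythm to genes outside the loop.

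The lean library held 15983348 counts and the non-lean library 12731974. Levels are given as counts and as CPM, which is counts per 1000000 of the scaled library size, and they are not per length, so they compare a gene between libraries and not 1 gene with another. The log2 ratio is non-lean over lean, with its 95% counting interval in brackets. A call, higher or lower, needed a 2-fold difference and an interval without 0. Genes with a mean of at least 1 CPM are called tested genes, and there were 13707, all 10 clock genes among them. The defining markers of muscle fibres were abundant in both libraries, with 1223115 lean and 804023 non-lean counts for ACTA1, skeletal actin. They stood on both sides of 0, since of 8 fibre markers 6 had intervals below 0, with the fast myosin MYH1 lowest at -0.93, and 2 above, the slow troponin TNNT1 at 1.11 and myoglobin MB at 0.80. The part of fibre type in the values of the clock genes was not tested.

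Of the 10 clock genes, the non-lean library was lower in the activators ARNTL and NPAS2, by 2.92-fold and 2.73-fold. NR1D1 was 1.98-fold lower, and PER3, CRY1, CRY2 and CLOCK were lower by smaller amounts. PER2 was the exception, 1.35-fold higher, while PER1 and DBP had intervals that held 0. So 2 of 10 members were called lower and 0 higher, where 7.16% of all tested genes were called lower and 4.91% higher. Intervals lay below 0 for 7 members and above 0 for 1, beside 28.8% and 25.8% of all tested genes. The median log2 ratio was -0.39 over the 10 members and -0.01 over all tested genes. Scaling by total counts lifts the median of all tested genes by 0.14, and under it PER1 changed sign to 0.06 and the intervals of CLOCK and CRY1 held 0.

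**Figure D1:**
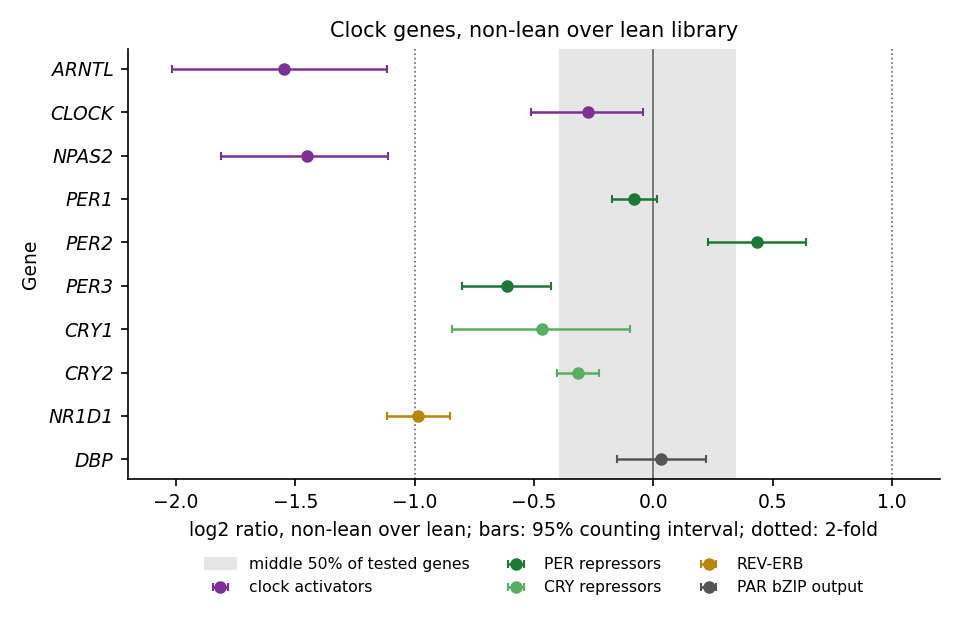
Log2 ratio, non-lean over lean (x axis), for each clock gene (y axis), coloured by role, with 95% counting intervals; the grey band is the middle 50% of tested genes, from -0.39 to 0.34, and dotted lines mark 2-fold. ARNTL at -1.55 and NPAS2 at -1.45 lie past the 2-fold line on the lower side, NR1D1 at -0.98 lies at it, and PER2 at 0.43 has the only interval above 0.

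Among the activators, ARNTL, the partner that every active pair needs, had 184 lean and 55 non-lean counts. In CPM this was 12.1 in lean and 4.11 in non-lean muscle. Its log2 ratio was -1.55 [-2.02, -1.11], and 2.69% of tested genes had a lower ratio. NPAS2, which can take the place of CLOCK in the pair, had 284 and 91 counts, or 18.7 and 6.81 CPM. Its log2 ratio was -1.45 [-1.81, -1.11], with 3.08% of tested genes below it. CLOCK itself had 361 and 262 counts, or 23.7 and 19.6 CPM, and a log2 ratio of -0.28 [-0.51, -0.04], inside the middle 50% of tested genes. The activators were thus unequal in these libraries. The ratio of CLOCK to NPAS2 counts went from 1.27 in lean to 2.88 in non-lean muscle, a change of 1.18 [0.76, 1.61] on the log2 scale. The ratio of ARNTL to NPAS2 moved by -0.10 [-0.68, 0.47], an interval that held 0. ARNTL2, the paralogue of ARNTL, had 79 and 40 counts and was lower at -0.79 [-1.38, -0.23]. In the reference gene table ARNTL overlaps 1 gene with a placeholder name and NPAS2 overlaps 2, and no step that marks strand is named for these libraries, so reads from such overlaps may be counted with ARNTL and NPAS2.

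**Figure D2:**
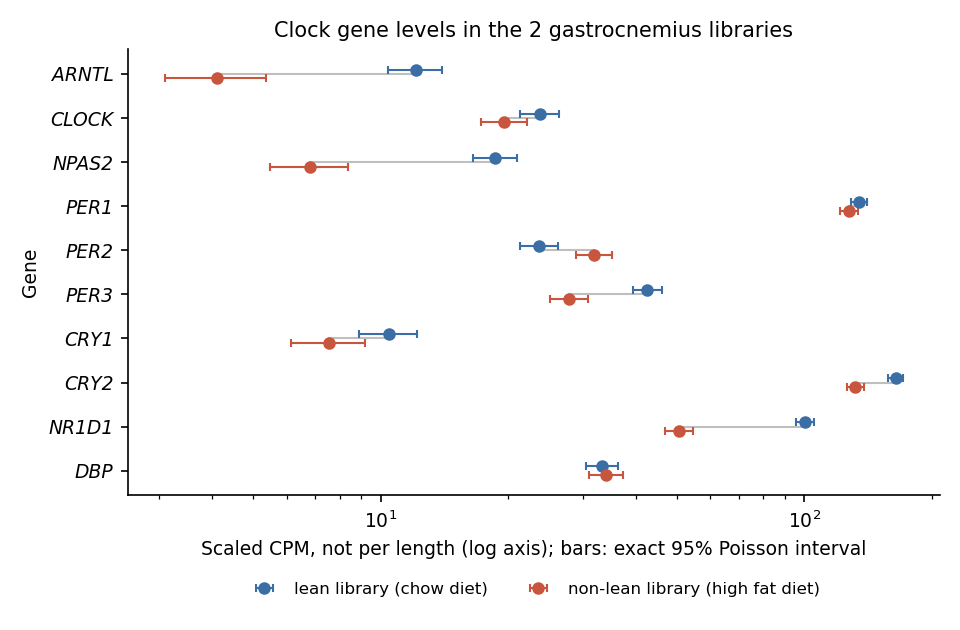
Scaled CPM on a log axis (x axis) for each clock gene (y axis) in the lean library (blue) and the non-lean library (red), with exact 95% Poisson intervals of the count. The intervals of the libraries are far apart for ARNTL, NPAS2 and NR1D1. They overlap for PER1 and DBP, and at their ends for CLOCK and CRY1.

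The PER genes, which encode the proteins that carry CRY into the nucleus and hold back the activators, did not move together. PER1, which also answers directly to glucocorticoids and cyclic AMP, had 2051 lean and 1706 non-lean counts, or 135 and 128 CPM. Its log2 ratio was -0.08 [-0.17, 0.01]. PER2 had 360 and 427 counts, or 23.7 and 31.9 CPM, a log2 ratio of 0.43 [0.23, 0.64] with 20.2% of tested genes above it. PER3 had 648 and 372 counts, or 42.6 and 27.8 CPM, and a log2 ratio of -0.61 [-0.80, -0.43]. Ratios within a library need no scaling, and the ratio of PER2 to PER3 was 0.556 in lean and 1.15 in non-lean muscle. That ratio was 2.07-fold higher in the non-lean library, a log2 change of 1.05 [0.77, 1.33].

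The CRY genes encode the repressors that bind the activator pair. CRY1 had 159 lean and 101 non-lean counts, or 10.4 and 7.55 CPM, and a log2 ratio of -0.47 [-0.84, -0.10]. CRY2 had 2497 and 1762 counts, or 164 and 132 CPM, and a log2 ratio of -0.32 [-0.41, -0.23]. Both were lower, and the ratio of CRY1 to CRY2 moved by -0.15 [-0.54, 0.23] on the log2 scale, an interval that does not settle which was lower by more.

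NR1D1, the repressor of ARNTL and NPAS2, had 1527 lean and 678 non-lean counts. In CPM this was 100.3 in lean and 50.7 in non-lean muscle. The log2 ratio was -0.98 [-1.12, -0.85], just short of 2-fold. With DESeq2 size factors it was -1.01 and past it, which made 3 members called lower, beside 1040 of 13713 tested genes under that scaling. The repressor and the targets it is known to repress were therefore lower in the same library. NR1D2, which encodes REV-ERB beta, had 1046 and 592 counts and a log2 ratio of -0.63 [-0.78, -0.49]. In the reference gene order NR1D1 lies beside THRA, a thyroid hormone receptor, which had 1898 and 978 counts and a log2 ratio of -0.77 [-0.88, -0.66]. Without strand, reads from the ends of these neighbours may not be separable, and the ratio of NR1D1 to THRA moved by -0.21 [-0.39, -0.04].

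DBP, the output factor that is driven by the activator pair and usually swings widely over the day, was nearly level. It had 507 lean and 456 non-lean counts, or 33.3 and 34.1 CPM, and a log2 ratio of 0.03 [-0.15, 0.22]. Its relatives of the PAR bZIP family were lower, TEF with 874 and 573 counts at -0.42 [-0.58, -0.27] and HLF with 221 and 131 counts at -0.57 [-0.89, -0.25]. The ratio of DBP to TEF was 1.37-fold higher in the non-lean library, a log2 change of 0.46 [0.21, 0.70]. NFIL3, which competes with DBP for the same sites, had 167 and 146 counts and a log2 ratio of -0.01 [-0.34, 0.32]. DBP overlaps SPHK2, a sphingosine kinase, in the reference gene table, and SPHK2 had 121 and 111 counts.

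The activator limb was then set against the PER, CRY, REV-ERB and DBP limbs. The 3 activators had a median log2 ratio of -1.45 and the 7 other members one of -0.32, a difference of -1.13. Pooled counts of the 3 activators were 829 in lean and 408 in non-lean muscle, and those of the 7 others 7749 and 5502. From these pooled counts the difference was -0.53 [-0.71, -0.35], smaller because CLOCK held the most counts of the 3. Each activator was also divided by each of the 7 other members within its library, which needs neither scaling nor gene length. Of these 21 ratios, 16 were lower in the non-lean library with an interval below 0, 2 were higher, and 3 held 0. ARNTL was lower against all 7, from -1.99 against PER2 to -0.57 against NR1D1, and NPAS2 against all 7, from -1.89 to -0.47. These ratios share their members and are not independent of each other.

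**Figure D3:**
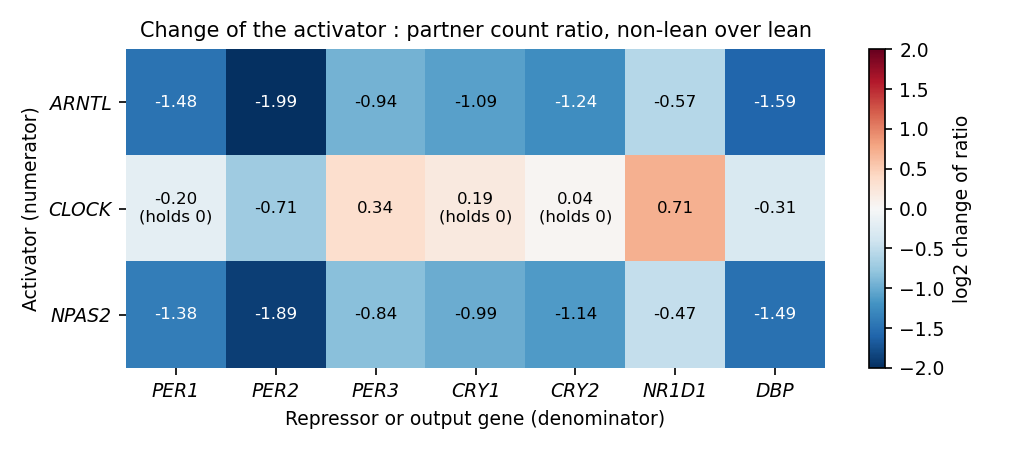
Log2 change, non-lean over lean, of the count ratio of each activator (rows) over each repressor or output gene (columns); blue is lower and red higher in the non-lean library, and cells marked as holding 0 have a 95% interval that includes 0. The rows of ARNTL and NPAS2 are blue throughout, from -1.99 to -0.47, while CLOCK runs from -0.71 against PER2 to 0.71 against NR1D1.

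CLOCK behaved otherwise. Its ratio was lower in the non-lean library against PER2, at -0.71 [-1.02, -0.39], and against DBP, at -0.31 [-0.61, -0.01]. It was higher against NR1D1, at 0.71 [0.44, 0.98], and against PER3, at 0.34 [0.04, 0.64]. Against PER1, CRY1 and CRY2 the interval held 0.

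The repressor and output limbs were spread as well. Their log2 ratios ran from -0.98 for NR1D1 to 0.43 for PER2, and the ratio of PER2 to NR1D1 was 2.67-fold higher in the non-lean library, at 0.630 against 0.236 in lean muscle. The ratio of NR1D1 to DBP, both direct targets of the activator pair, was 3.01 in lean and 1.49 in non-lean muscle, a log2 change of -1.02 [-1.25, -0.79]. Put in order, the ratios ran ARNTL, NPAS2, NR1D1, PER3, CRY1, CRY2, CLOCK, PER1, DBP and PER2. Of the 9 steps between neighbours in that order, 6 had an interval that held 0. The steps that did not were NPAS2 to NR1D1, at 0.47 [0.10, 0.85], NR1D1 to PER3, at 0.37 [0.14, 0.60], and DBP to PER2, at 0.40 [0.12, 0.68]. Read by the phases known from running clocks, ARNTL and NPAS2 were both low. Of the members named above as peaking against them, NR1D1 was lower too, at -0.98, and DBP was level at 0.03. Their relatives NR1D2, TEF and HLF were at -0.63, -0.42 and -0.57. The PER genes stood at -0.08 for PER1, 0.43 for PER2 and -0.61 for PER3. No phase was assigned, as each group was sampled in 1 library at an hour that is not given.

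The estimated counts were divided among several transcript models for some members, and these divisions differed between libraries. ARNTL had 27 models, and none had at least 1 count in both libraries. In the lean library its counts lay on 4 models with 47.5, 46.6, 45.4 and 44.5 estimated counts, all at 0 in the non-lean library. In the non-lean library nearly all lay on models with 37.8 and 15.7. The gene total is therefore the value to read, and no single ARNTL model can be compared. PER3 had 17 models. Its leading model XM_015443211.1 had 253 lean and 293 non-lean counts, 39.1% and 78.8% of the gene. The next PER3 models, XM_005544895.2 with 238 and 50.4 and the noncoding XR_001487554.1 with 101 and 0, carried the lower total, so that the leading model alone had a log2 ratio of 0.40 [0.15, 0.65], opposite in sign to the gene. For CLOCK the leading model made up 99.6% in lean and 74.1% in non-lean muscle, where a model with 67.9 counts was at 0 in the lean library. NPAS2, PER1 and PER2 had 95.5% to 100% of their counts on 1 model in both libraries. CRY1, CRY2, NR1D1 and DBP had all their counts on 1 model.

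**Figure D4:**
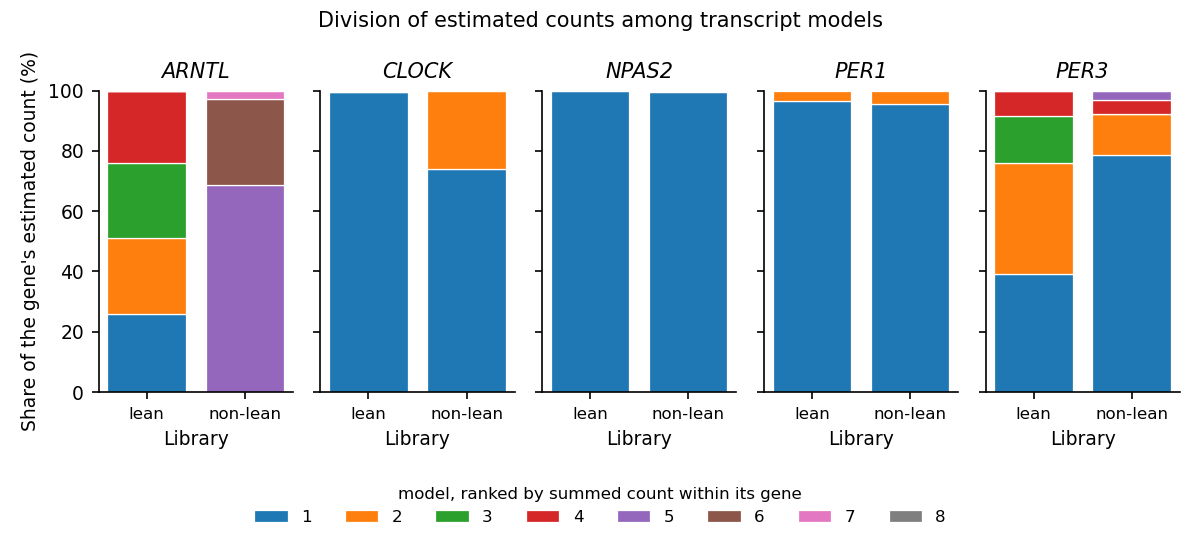
Share of each gene's estimated count in percent (y axis) that lies on each transcript model, in the lean and non-lean library, for ARNTL, CLOCK, NPAS2, PER1 and PER3; colours rank the models by summed count within their own gene. ARNTL has no colour in common between the libraries, and the leading PER3 model grows from 39.1% to 78.8%, while NPAS2 and PER1 have 95.5% to 100% on their leading model in both.

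Other transcription factors of the clock leaned to the lower side too. Of 11 tested genes, 8 had intervals below 0 and 2 above, beside 28.8% and 25.8% of all tested genes, and 1 held 0. The list median was -0.42. BHLHE40 (DEC1), which competes with the activator pair for its sites, was the only one of the 11 called lower, where 7.16% of all tested genes were. It had 6091 lean and 2661 non-lean counts and a log2 ratio of -1.01 [-1.07, -0.94]. Under total counts BHLHE40 was at -0.87 and would not be called. Its paralogue BHLHE41 had 1360 and 1096 counts and a ratio of -0.12 [-0.24, -0.01], which turned to 0.02 with total counts. CIART, a repressor of the activator pair, was highest, with 113 and 140 counts at 0.49 [0.13, 0.87]. RORA, an activator of ARNTL, had 374 and 451 counts and was higher at 0.46 [0.26, 0.66]. RORA was thus higher, and its competitor NR1D1 lower, in the library where their common target ARNTL was lower. CIPC, which binds CLOCK, had 1975 and 1384 counts at -0.33 [-0.43, -0.23]. RORB had 0 counts in both libraries, which at a limit of 3 counts allows up to 0.197 CPM (lean) and 0.224 CPM (non-lean).

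Genes whose products modify clock proteins stood close to the rest of the transcriptome. Of 15 tested kinases, ligases and other modifiers, 5 had intervals below 0 and 1 above, beside 28.8% and 25.8% of all tested genes, and 9 held 0. The list median of -0.13 became 0.02 with total counts. FBXW11, a ubiquitin ligase adaptor for PER, and PRKAA2, the muscle AMP kinase subunit that marks CRY1, were lowest at -0.62 and -0.60. The deubiquitinase USP2, itself a clock output, had 2464 and 2847 counts and was highest at 0.40 [0.32, 0.47], followed by the PER kinase CSNK1E at 0.09 [-0.09, 0.26]. CSNK2A1, a casein kinase subunit and the next most abundant, was at -0.18. Of 12 co-activators and co-repressors, 8 had intervals below 0 and 2 above, beside the same shares of all tested genes, with a median of -0.29. The acetyltransferase CREBBP and the methyltransferase KMT2A were lowest at -0.72 and -0.65, and the demethylase KDM5A, with 150 and 204 counts, was highest at 0.63 [0.32, 0.94], followed by SFPQ at 0.13. The abundant member KAT2B was at -0.55, and NCOR1, the partner of REV-ERB, was at -0.01 [-0.12, 0.11].

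Genes known as clock outputs in muscle had no common direction. Of 12 tested, 5 had intervals below 0 and 2 above, beside 28.8% and 25.8% of all tested genes, and 5 held 0. The list median of -0.07 became 0.07 with total counts. The sarcomere gene TCAP, with 39426 and 51989 counts, was highest at 0.59 [0.57, 0.60], and the mitochondrial coactivator PPARGC1A was at 0.36 [0.16, 0.55]. The cell cycle inhibitor CDKN1A was lowest and the only one of the 12 called, where 7.16% of all tested genes were called lower. It had 210 and 79 counts at -1.22 [-1.62, -0.84], and the hexokinase HK2 was at -0.76 [-1.29, -0.26]. UCP3, a mitochondrial carrier, had 2848 and 2512 counts and stood at 0.01 [-0.07, 0.08]. MYOD1, the muscle regulator bound by the activator pair, had 1720 and 1381 counts at -0.13 [-0.23, -0.03], which turned to 0.01 with total counts.

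Signals that set the clock from outside were looked at through their target genes. Of 12 glucocorticoid-responsive genes, 9 had intervals below 0 and 1 above, beside 28.8% and 25.8% of all tested genes, with a median of -0.53. ZBTB16 and the receptor gene NR3C1 were lowest at -0.86 and -0.85, the abundant members CEBPB and TSC22D3 were at -0.59 and -0.54, and NFKBIA was at 0.07. HSD11B1, which regenerates cortisol, was highest at 1.16 [0.25, 2.19] on 15 and 30 counts. Of 18 tested immediate early genes, 12 had intervals below 0 and 2 above, with a median of -0.56. Of the 18, 5 were called lower, beside 7.16% of all tested genes, and the intervals below and above 0 stand beside 28.8% and 25.8%. FOSB and FOS were lowest at -2.73 and -2.50, the abundant members JUN and NR4A1 were at -0.55 and -0.25, and CREM and NR4A2 were higher at 0.35 and 0.89. PER1, which both kinds of signal induce, stood at -0.08 beside these lists. Of 8 temperature-responsive genes, 4 had intervals above 0 and 2 below, beside 25.8% and 28.8% of all tested genes, with a median of 0.23. The chaperones HSP90AA1 and HSPH1 were highest at 0.56 and 0.55, HSPA4 and HSF1 were lowest at -0.28 and -0.07, and HSPA8, the most abundant, was at -0.04. CIRBP, a cold-induced protein that binds CLOCK transcripts, had 2155 and 2499 counts and was higher at 0.40 [0.32, 0.48]. The part of these signals in the values of the clock genes was not tested.

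**Figure D5:**
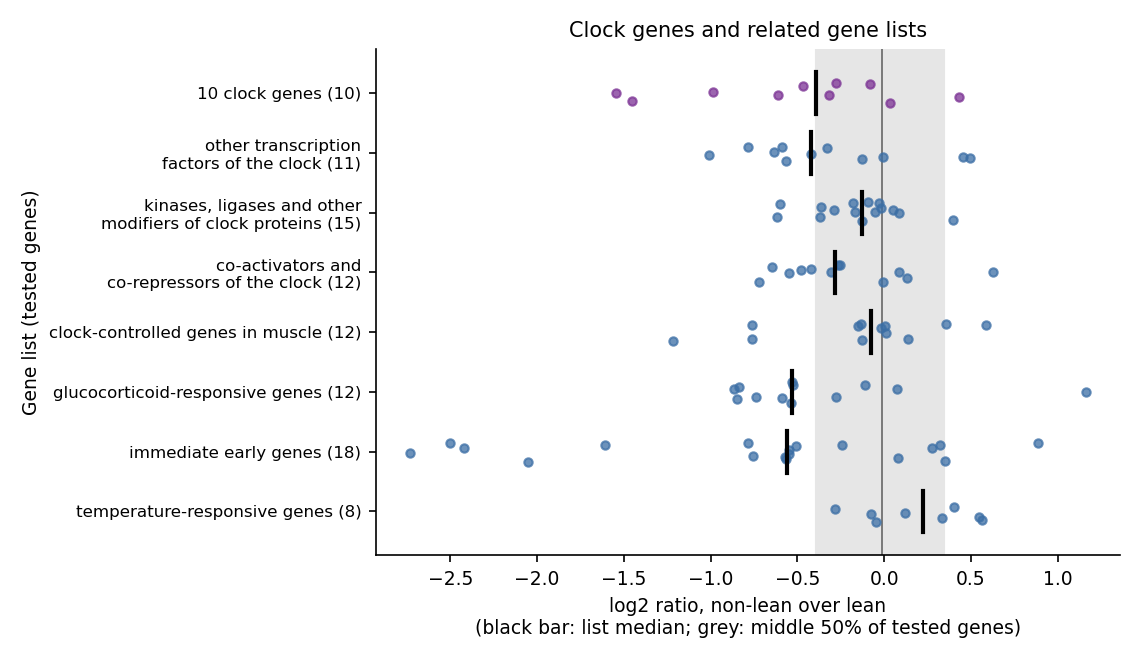
Log2 ratio, non-lean over lean (x axis), of each tested gene (points) in the clock and in each related list (y axis, with the number of tested genes); black bars are list medians, the grey band is the middle 50% of tested genes and the thin line their median. The clock genes spread from -1.55 to 0.43 about a median of -0.39, immediate early genes reach -2.73, and temperature-responsive genes centre at 0.23.

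Markers of several cell types between the fibres were lower in the same library. Of all tested genes, 28.8% had intervals below 0. All 5 fibroblast markers and all 5 macrophage markers had intervals below 0, with summed levels of 793 and 356 CPM for fibroblasts and of 56.3 and 17.0 CPM for macrophages, lean before non-lean. Of 4 tested adipocyte markers 3 were below 0, ADIPOQ, PLIN1 and CIDEC at -3.55, -2.64 and -2.65, and the list median was -2.64. FABP4, which endothelium also expresses, was above 0 at 0.26 and held most of the list's sum of 45.3 lean and 32.1 non-lean CPM. Of 5 endothelial markers 4 were below 0, with 235 and 175 CPM, and 2 of 3 tested Schwann cell markers were, with 99.6 and 50.6 CPM over the list. Smooth muscle and pericyte markers had a median of -0.10, with 2 of 5 below 0, 2 holding 0 and RGS5 above 0 at 0.16, and summed to 204 and 185 CPM. Satellite cell markers had a median of -0.02, with 1 of 3 tested below 0 and 2 holding 0, and summed to 68.9 and 44.3 CPM. CDH15, the one below 0, held most of that sum, with 65.4 and 41.7 CPM. PAX7, too low to be a tested gene, had 15 and 2 counts at -2.45 [-5.89, -0.62]. Among 5 lymphocyte markers MS4A1 and CD79A were at 0 in both libraries, and the list summed to 1.84 and 1.57 CPM. Nearly every cell type runs the clock, so in bulk muscle fewer cells of a type and less RNA of a gene per cell cannot be told apart. The part of these cells in the lower ARNTL, NPAS2 and NR1D1 values was not tested.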

How the data were processed

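Per the file headers, the authors deposited expected counts per RefSeq transcript, with gene symbols, in 76183 rows for each of 2 libraries. The values are not normalised. Tools in the submitters' processing notes, without roles, are STAR 2.7.8a, RSEM 1.3.3 and Trim Galore 0.6.6. The genome build is not given in the sources used here, so no coordinates are printed.

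Estimated counts were summed per gene and rounded, with symbols and neighbours checked against a RefSeq table of assembly T2T-MFA8v1.1. Scaling used the trimmed mean of M-values (edgeR 4.0.16, R 4.3.3; factors 0.952 and 1.05). Ratios carry a prior count of 0.5 per library and exact Clopper-Pearson 95% intervals, and ratios of 2 genes exact conditional odds ratio intervals (scipy 1.17.1). Intervals, and the limit of 3 counts that a count of 0 allows, cover counting error only, as each group has 1 library. They treat reads as independent, and PCR reads are not independent molecules, so even this error may be understated. Scripts were tested on simulated data. Alternatives were total counts, DESeq2 1.42.0 size factors, totals without the 10 most abundant genes, other prior counts, filters and folds, and the leading transcript model.

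The rule for the clock genes uses no measured value, but the genes, lists and alternatives were proposed with earlier results of these data known. Named are all 10 clock genes, any gene called in the other clock lists, and the 2 highest, 2 lowest and 2 most abundant tested genes of each list. THRA, SPHK2, NR1D2, TEF, HLF, NFIL3, BHLHE41, NCOR1, MYOD1 and CIRBP are named for a tie to a clock gene, after their values were seen. No symbol matched HSPA1A, HSPA1B or HBA1, which are not analysed here. Some list members enter the counts and medians of their lists without being reported singly.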

Additional observations from a re-analysis of the deposited data

How the results depend on the processing

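No paired analysis was possible because each group has 1 library, and for the same reason no library could be left out. The 6 alternatives of scaling, prior count and transcript choice left ARNTL, NPAS2, CLOCK, CRY1, CRY2 and NR1D1 with ratios below 0 and PER2 with ratios above 0. The intervals of CLOCK and CRY1 held 0 with total counts, and that of DBP held 0 in all 6. PER1 had an interval below 0 with DESeq2 size factors, at -0.11 [-0.20, -0.02]. Members with an interval below 0 thus numbered 5 with total counts and 8 with DESeq2 size factors. The main scaling gave 7, beside 28.8% of all tested genes. ARNTL ran from -6.38 to -1.40 and NPAS2 from -1.48 to -1.31. The lowest ARNTL value is that of its leading transcript model, which has 0 counts in the non-lean library, and is no bound. The leading model alone turned PER3 to 0.40, so that 2 members had intervals above 0. With a 1.5-fold threshold 4 members were called lower, beside 15.4% of tested genes. With total counts PER1 stood at 0.06. The activator limb stood below the merged group of the 7 other members in all alternatives run, at -0.53 from pooled counts. The difference was -1.18 without CLOCK and -1.25 without NR1D1, leave-outs chosen after seeing the data. CLOCK was the highest activator and NR1D1 the lowest of the other members, so leaving out either could only widen the difference. Leaving out ARNTL or NPAS2 was not run. The share of tested genes called in either direction was 12.1%, and 7.45% among genes with a mean of at least 5 CPM. Of the genes called, 40.7% were higher, 56.0% with total counts. Precision is limited by depth for ARNTL, NPAS2 and CRY1, and by the single library per group for every value.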
